A study of Homo sapiens with 4 samples.

Results

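SW-13 is an adrenocortical carcinoma cell line that lacks BRG1 and BRM, and V5-tagged BRG1 was returned to it from a doxycycline-inducible transposon. CUT&RUN, in which an antibody brings a nuclease to a chromatin protein so that the DNA around it is cut out and sequenced, was performed with an anti-V5 antibody after 24 h of doxycycline on 300000 cells per sample. There were 2 replicates of cells that express wild-type BRG1 (iBRG1) and 2 of cells that express a BRG1 whose helicase/SANT-associated (HSA) domain was deleted (i∆HSA), and individual clones were used for each line. All samples came from the same parental line and carried the tag and the drug, and cells without doxycycline were not analysed here. The deposited data hold 1 peak list per construct, with a position and a score for each peak and no column for a replicate. Every value below therefore describes these lists, and the replicate error is unknown.

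The peaks described here were chosen by their score and place, as the weaker peaks of both lists that lay in the first intron of a protein-coding gene. A peak was included when its score was under 10, when it lay wholly inside the first intron of the longest protein-coding transcript of a gene, when it overlapped no exon of any transcript and when it was more than 1 kb from every annotated transcript start. This left 3552 of 49583 peaks, with 1940 of 24212 in the iBRG1 list (8.01%) and 1612 of 25371 in the i∆HSA list (6.35%). The score is a whole number given by the authors, and its scale is not stated, so a score of 5 in one list may not equal a score of 5 in the other. Scores under 5 were held by 1520 of the iBRG1 members (78.4%) and by 1160 of the i∆HSA members (72.0%). This cut matches the minimum score named in the methods of the study, which also reports fewer peaks per construct than these lists hold. If the scales are the same, the members below the cut would be calls that the study filtered out. Whether the scales are the same is unknown. At the edge of the rule, the 48 iBRG1 first-intron peaks with a score of 9 had a median width of 1419.5 bp and the 39 with a score of 10 had a median of 1684 bp. In the i∆HSA list the 47 peaks with a score of 9 had a median width of 1137 bp and the 48 with a score of 10 had a median of 1571 bp. First-intron peaks with a score of 10 or more numbered 312 and 390 and were not counted as members.

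BRG1 is one of the alternative ATPases of the SWI/SNF complex, which slides and ejects nucleosomes and so opens enhancers and promoters to transcription factors. Its HSA domain is the platform on which actin, ACTL6A and the BCL7 proteins join the ATPase. The first intron of a gene is often its longest, and it commonly carries enhancers and other regulatory elements that act on the promoter just upstream. AP-1, a dimer of FOS and JUN family proteins, is known to recruit SWI/SNF to enhancers in many cell types, and TEAD proteins, the DNA-binding partners of YAP, often bind the same enhancers.

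The sequences below are windows of 101 bases of the reference genome (GRCh37, which is hg19, plus strand). They come from the overlaps of the strongest pairs of members, in which an iBRG1 and an i∆HSA peak covered the same bases, because these are the sites at which both constructs were seen. Capitals mark a match to the AP-1 pattern on either strand. Each window was centred on the match nearest the middle of the overlap, or of the peak for MYOF. The place of the match in a window was therefore fixed by this choice and says nothing about peak centres. In the pairs shown, the match lay 25 to 1113 bp from a peak midpoint, with both extremes in FMNL2. The window of SH2D1B, centred on the middle of its overlap, is shown as one of the 3 among the 10 strongest pairs without a match in the overlap.
FHL1, chrX:135267972-135268072: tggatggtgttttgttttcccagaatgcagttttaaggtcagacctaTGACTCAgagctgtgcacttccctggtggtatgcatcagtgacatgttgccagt
FMNL2, chr2:153211567-153211667: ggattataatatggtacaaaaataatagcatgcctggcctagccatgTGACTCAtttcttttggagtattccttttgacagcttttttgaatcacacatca
SHROOM3, chr4:77406753-77406853: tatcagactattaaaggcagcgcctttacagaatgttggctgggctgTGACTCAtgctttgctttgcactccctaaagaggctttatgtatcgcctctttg
KCNMB4, chr12:70787586-70787686: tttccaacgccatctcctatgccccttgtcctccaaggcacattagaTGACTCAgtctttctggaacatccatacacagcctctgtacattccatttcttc
GLG1, chr16:74612042-74612142: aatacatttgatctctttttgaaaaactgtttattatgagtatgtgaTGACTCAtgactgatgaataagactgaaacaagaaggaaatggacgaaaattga
RAB10, chr2:26291593-26291693: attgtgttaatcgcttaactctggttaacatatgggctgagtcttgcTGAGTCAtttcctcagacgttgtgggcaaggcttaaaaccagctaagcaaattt
SH2D1B, chr1:162374565-162374665: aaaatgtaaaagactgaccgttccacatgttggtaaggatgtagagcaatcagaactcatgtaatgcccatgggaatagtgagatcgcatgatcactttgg
One more window is shown for MYOF, which encodes a membrane repair protein of the ferlin family and was among the BRG1 target genes the study examined. It is the only one of those genes with a member.
MYOF, chr10:95235721-95235821: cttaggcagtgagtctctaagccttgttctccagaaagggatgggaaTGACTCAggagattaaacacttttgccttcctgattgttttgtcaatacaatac

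In FHL1, a LIM-domain gene of muscle, both peaks scored 8, their midpoints were 306 bp apart, and they lay 16.0 kb from the transcript start in an intron of 36.4 kb. In SHROOM3, whose product binds actin and drives apical constriction, the peaks started at the same base, scored 9 and 6 and shared 553 bp with 2 AP-1 matches. The overlap in FMNL2, a formin gene, also held 2 matches, and those in KCNMB4 (a subunit of the BK potassium channel), GLG1 (a Golgi glycoprotein) and RAB10 (a GTPase of vesicle traffic) held 1 each. The overlaps in SH2D1B, MB21D2 and INPP4A held none. The 10 pairs were ranked by the sum of their scores.

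MYOF held 2 iBRG1 members and 0 i∆HSA members in an intron of 25169 bp. The peak at chr10:95235084-95236429 had a score of 7, lay 6334 bp from the start and held the AP-1 match shown above, 14 bp from its midpoint. The peak at chr10:95227661-95228762 had a score of 4 and overlapped an i∆HSA peak that is not a member. SRPX2, CRYAB, CSF1, SPARC, CD44, CDKN1A, SNCG, ITIH3, SMARCA4, SMARCA2, BCL7A, BCL7B and BCL7C held 0 members in either list. Most genes held none. Over all protein-coding genes whose first intron has room for a peak, 13.5% held an iBRG1 member and 12.0% an i∆HSA member. How many of the named genes have such room is not given here. Stronger peaks, and peaks at promoters or in later introns, are outside this count, so it does not show that BRG1 was absent from these genes.

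Widths were compared with those of weak peaks elsewhere. The iBRG1 members were 1211 bp wide at the median, from 289 to 7216 bp, against 1063 bp for iBRG1 peaks of the same scores in later introns and 1018 bp in intergenic sequence. The i∆HSA members were 1043 bp wide at the median, from 266 to 5379 bp, against 940.0 and 1038 bp. Median GC content was 38.3% in both sets of members. Peaks of under 25% GC made up 0.412% of iBRG1 members and 0.931% of i∆HSA members, compared with 1.44% and 4.35% of the intergenic peaks.

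The next question was where in the genes the members lay. The median distance from the transcript start was 25077 bp in the iBRG1 list and 22120.0 bp in the i∆HSA list, and 25.0% and 26.0% lay within 10 kb. Members were spread along the intron. When each intron was split into 3 equal parts, the part nearest the start held 29.6% of the iBRG1 positions, the middle 36.1% and the last 34.3%, and the i∆HSA shares were 27.8%, 37.7% and 34.5%. The parts were of the whole intron. Sequence that the rule bars, such as that within 1 kb of a transcript start, was not taken out. The introns that held members were long, with medians of 58121 and 51797 bp, against 3446 bp for the first introns of all 18634 genes that have one. Among the 10464 genes whose first intron has room for a peak, the median was 10457 bp.

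Since long introns offer more places for a peak, peaks were counted per Mb of eligible sequence, meaning positions at which a peak of 1037 bp would meet the same rules of place. The iBRG1 list had 9.33 peaks per Mb in first introns (95% interval 8.92 to 9.75) and 7.54 in later introns (7.32 to 7.76), a ratio of 1.24 (1.17 to 1.31). The i∆HSA list had 7.75 (7.38 to 8.14) and 7.43 (7.21 to 7.65), a ratio of 1.04 (0.985 to 1.11). Among scores of 5 to 9 the ratios were 1.65 and 1.19. These intervals, like all others here, cover counting error only.

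Both rates varied with the distance from the start. In first introns the iBRG1 rate was 8.50 per Mb at 2 to 5 kb, reached 10.9 (9.66 to 12.2) at 5 to 10 kb, stayed at 10.5 (9.61 to 11.3) at 20 to 50 kb and was 5.56 (4.38 to 6.96) beyond 200 kb. The i∆HSA rate was 6.65 at 2 to 5 kb, 9.69 (8.55 to 10.9) at 5 to 10 kb, 8.85 (8.07 to 9.67) at 20 to 50 kb and 3.80 (2.84 to 4.99) beyond 200 kb. For iBRG1 the first-intron rate was above the later-intron rate in 5 of 8 bands, among them 20 to 50 kb with a later-intron rate of 8.46 (7.89 to 9.05). It was below in 3, which were 1 to 2 kb (5.51 and 14.1, on 16 and 4 peaks), 100 to 200 kb (7.28 and 7.90) and beyond 200 kb (5.56 and 6.11). For i∆HSA the first-intron rate was below the later-intron rate in 7 of 8 bands, although the ratio over all distances was 1.04, and at 20 to 50 kb the later-intron rate was 9.75 (9.15 to 10.4).

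**Figure D1:**
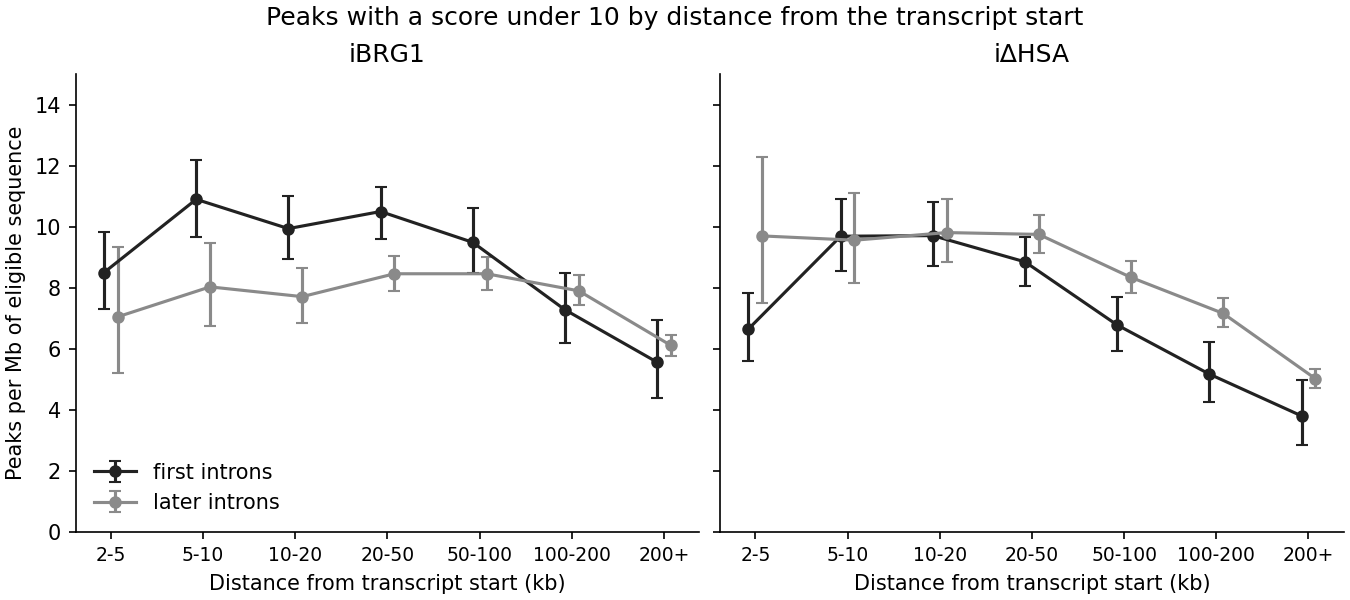
Peaks with a score under 10 per Mb of eligible sequence (vertical axis) against distance from the transcript start in kb (horizontal axis, from 2 kb), for first and later introns in each list; points are rates and bars are exact 95% Poisson intervals. Between 5 and 50 kb the iBRG1 points for first introns lie above those for later introns, at 9.94 to 10.9 per Mb, and beyond 100 kb they lie below, whereas the i∆HSA points of both classes lie together from 5 to 20 kb and the first introns lie lower beyond that.

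Placement was then compared directly between the constructs. Of intronic peaks with a score under 10, 30.3% of 6406 in the iBRG1 list and 26.8% of 6012 in the i∆HSA list were in first introns (odds ratio 1.19, 1.10 to 1.28, p = 1.94e-05, two-sided Fisher's exact test on peaks). Within bands of distance from the start the odds ratio was over 1 in all 8 bands, from 1.20 to 1.75, and 4 of the 8 passed at an adjusted p of 0.05. It was 1.36 (1.17 to 1.59, adjusted exact p = 6.02e-04) at 20 to 50 kb and 1.38 (1.14 to 1.68, adjusted exact p = 0.00373) at 50 to 100 kb. Peaks are not replicates of a construct, and with 1 list each a difference between constructs cannot be told apart from a difference between libraries in depth or background.

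Very long introns held a larger share of the iBRG1 members. First introns of 100 kb or more held 29.6% of iBRG1 positions and 24.9% of i∆HSA positions (odds ratio 1.27, 1.09 to 1.47, adjusted exact p = 0.00655, Fisher's exact test), while introns of 5 to 20 kb held 14.5% and 18.1% (odds ratio 0.765, 0.638 to 0.916, adjusted exact p = 0.00655). Later introns of 100 kb or more differed the same way, with 18.8% and 14.0% of later-intron peaks (odds ratio 1.43, exact p = 6.63e-10). The contrast for first introns did not pass among scores of 5 to 9, where the odds ratio was 1.09 (adjusted exact p = 1.00). By chromosome, 0 of 23 shares differed between the lists after adjustment, and 2 had an unadjusted p under 0.05, with odds ratios of 1.36 on chromosome 11 (exact p = 0.0346) and 0.607 on chromosome 19 (exact p = 0.0429).

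At the level of genes, 10464 protein-coding genes had a first intron with room for a peak. Of these, 13.5% held an iBRG1 member and 12.0% an i∆HSA member. Genes of the iBRG1 set numbered 1409 and those of the i∆HSA set 1258. Both lists had members in 469 genes. That is 33.3% of the genes with an iBRG1 member and 37.3% of those with an i∆HSA member, and in 159 of them the members overlapped. The share of genes with a member followed the room in the intron. Under 5 kb of room it was 1.34% for iBRG1 and 1.40% for i∆HSA, from 20 to 100 kb it was 34.3% and 29.3%, and at 100 kb or more it was 64.5% and 47.5%. The overlap of the gene sets also varied with room. With 100 kb or more, 52.1% of genes with an iBRG1 member also held an i∆HSA member, against 47.5% of all genes in that class. The shares were 37.1% and 29.3% at 20 to 100 kb, 13.5% and 10.2% at 5 to 20 kb, and 8.33% and 1.40% under 5 kb. Most genes with a member had a single one, namely 1036 in the iBRG1 list (73.5%) and 983 in the i∆HSA list (78.1%).

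CMSS1 had the most members, with 12 in the iBRG1 list and 6 in the i∆HSA list along an intron of 328929 bp (chr3:99536888-99865816). None of its 18 members overlapped a peak of the other list, where over all members 13.8% (iBRG1) and 14.8% (i∆HSA) did. The 12 iBRG1 peaks lay between 7595 and 180543 bp from the start and the 6 i∆HSA peaks between 39058 and 269246 bp. CADM2, a gene for a neuronal adhesion molecule, had 12 iBRG1 and 3 i∆HSA members in 766852 bp, and 1 overlapping pair.

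In MAML2, which encodes a coactivator of Notch signalling, the lists coincided at several sites. It had 7 iBRG1 and 6 i∆HSA members, of which 4 and 5 overlapped a peak of the other list. The i∆HSA peak at chr11:95919628-95922516 scored 7 and the iBRG1 peak over it, at chr11:95920079-95922666, scored 4. SLC25A21, which encodes a mitochondrial carrier, had 4 iBRG1 and 6 i∆HSA members, and 3 of the iBRG1 members were shared. In EXT1, a gene of heparan sulfate synthesis, the numbers were 6 and 7, and in SGCZ, a sarcoglycan gene, they were 5 and 8 with 1 overlapping pair.

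Other genes were one-sided. AUTS2, a neurodevelopmental gene, had 7 iBRG1 members and 0 i∆HSA members, although 1 of the 7 overlapped an i∆HSA peak outside the set. WWC2, a scaffold gene of the Hippo pathway, had 6 iBRG1 members with scores of 3 to 8 and 0 i∆HSA members, and none was shared. ZNF804B, a zinc finger gene, had 1 iBRG1 and 8 i∆HSA members, none shared, and 4 of the 8 were under 500 bp wide. Over all members only 13.8% (iBRG1) and 14.8% (i∆HSA) were shared, so most members of any gene were unshared. These genes were ranked on the counts themselves, so the counts are a description and were not tested.

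Introns with at least 3 members were also ranked by members per length of room. SMS, the spermine synthase gene, came first and had 3 iBRG1 and 2 i∆HSA members in 24.2 kb of room, or 20.6 per 100 kb. GXYLT2, a xylosyltransferase gene, had 3 in all, DAP3, a gene of the mitochondrial ribosome, had 3, and THSD4, a gene of the extracellular matrix, had 4. At THSD4 both iBRG1 members overlapped an i∆HSA peak.

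**Figure D2:**
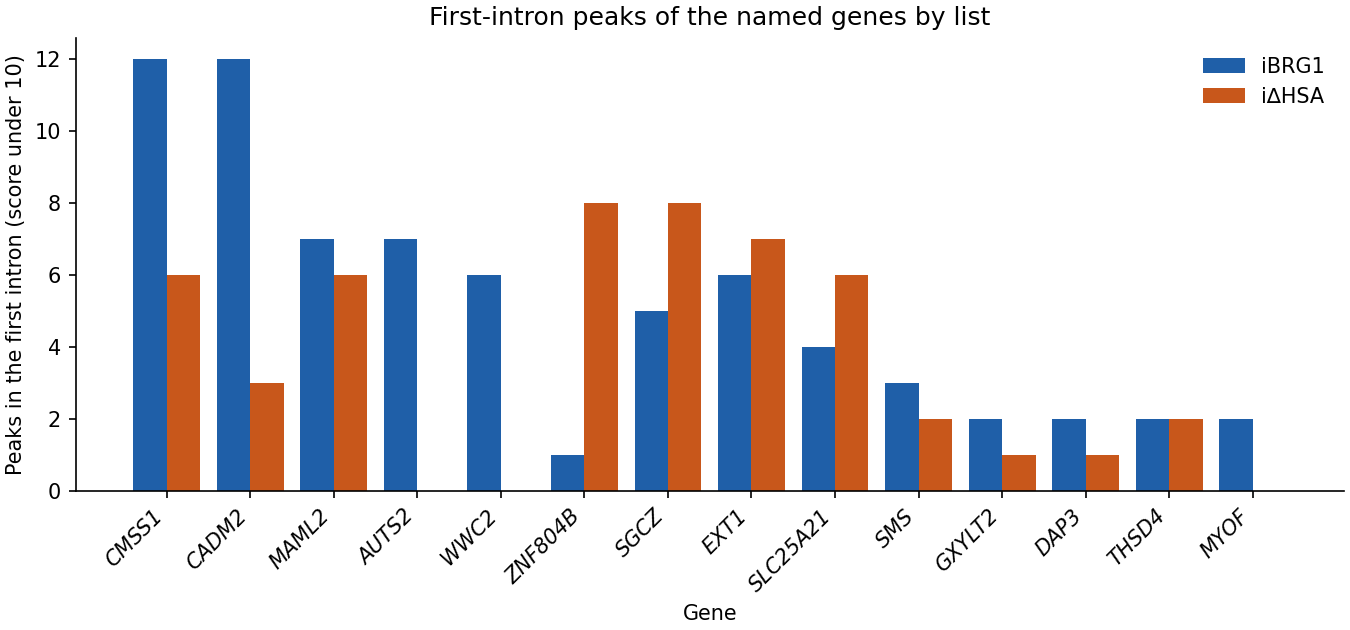
Number of first-intron peaks with a score under 10 (vertical axis) in each named gene (horizontal axis), with 1 bar per list. AUTS2, WWC2 and MYOF have iBRG1 bars of 7, 6 and 2 and no i∆HSA bar, ZNF804B has bars of 1 and 8, and MAML2 and EXT1 have bars of nearly equal height.

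Gene groups were read against the share and rate over all genes with room, which were 13.5% and 9.35 peaks per Mb for iBRG1 and 12.0% and 7.83 per Mb for i∆HSA, with a median room of 6.85 kb. Actin and contractile genes had a median room of 26.4 kb, and 13 of the 33 with room held an iBRG1 member and 8 an i∆HSA member. Their rates were 17.5 per Mb (10.2 to 28.0) and 10.3 (4.94 to 19.0). SVIL, which encodes supervillin, an actin-binding protein of the membrane skeleton, had 3 and 1 members. CALD1, the actin-binding caldesmon, had 1 and 3, ACTN4, an alpha-actinin gene, had 2 and 1, and LPP, a gene of focal adhesions, had 1 and 1.

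In the TGF-beta and BMP pathway 8 of 32 genes held an iBRG1 member and 11 an i∆HSA member, at 8.38 per Mb (4.02 to 15.4) and 13.4 per Mb (7.66 to 21.8), and the median room was 20.6 kb. Among ligands, BMP6 had 1 iBRG1 and 5 i∆HSA members. Its iBRG1 peak, with a score of 3, lay inside an i∆HSA peak with a score of 6, 44094 bp from the start. Among effectors, SMAD3, which carries the signal to the nucleus, had 2 and 2 members with 1 overlapping pair. The inhibitors SMURF1, a ubiquitin ligase, and SKI, a corepressor, had 1 and 1 each, and none of those overlapped each other. The i∆HSA member of SMURF1 did overlap an iBRG1 peak that is not a member.

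Integrins and cadherins held members in 8 of 37 genes for iBRG1 and 3 of 37 for i∆HSA, at 6.58 (3.28 to 11.8) and 2.99 (0.971 to 6.98) per Mb. ITGA6, the laminin receptor subunit, had 2 iBRG1 members with scores of 3 and 7 and 0 i∆HSA members, and PCDH7 had 2 in each list. Axon guidance genes had 4.36 per Mb (2.09 to 8.01) in each list, in 5 and 6 of 32 genes. Extracellular matrix genes had members in 3 and 5 of 33 genes, Wnt pathway genes in 4 and 2 of 23, and nuclear receptors in 2 and 5 of 31. RB, p53 and arrest genes had 1 and 2 of 17, among them CCND3, a D-type cyclin, with 2 and 3 members.

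SWI/SNF subunit genes had members in 1 gene for iBRG1 and 2 for i∆HSA of 18 with room. DPF3, a gene for a histone-reading subunit, had 2 iBRG1 members and 1 i∆HSA member, and BICRA, a subunit of the non-canonical complex, had 1 i∆HSA member. Genes of the AP-1 and TEAD factors had 0 members in 12 genes with room, which held 0.0960 Mb in all, so that rates of up to 38.4 per Mb lie within the interval. Of the 20 rates of 10 groups, 15 had an interval that included the rate of all genes. The interval lay above it for actin genes in iBRG1. It lay below for axon guidance, extracellular matrix (3.09 per Mb, 0.638 to 9.04) and nuclear receptor genes (3.15 per Mb, 0.859 to 8.07) in iBRG1 and for integrins and cadherins in i∆HSA. These intervals are not adjusted for the number of groups, and the groups were not matched to all genes for room. Genes with 100 kb or more of room had lower rates, at 7.31 per Mb for iBRG1 and 4.96 for i∆HSA. Each interval that lay below the rate of all genes includes the rate of these long introns in its list. Median room was 46.6 kb for axon guidance genes and 8.26 kb for nuclear receptor genes. The part of intron length in the low rates was not tested.

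To ask how often both constructs were seen at a site, each member was compared with all peaks of the other list, of any score. Overlap by at least 1 bp was found for 268 of 1940 iBRG1 members (13.8%, 12.4 to 15.4) and 238 of 1612 i∆HSA members (14.8%, 13.1 to 16.6). Over all peaks with a score under 10 the shares were 16.0% and 13.2%. In the i∆HSA list, members were shared more often than later-intron peaks, at 11.6% (odds ratio 1.32, 1.12 to 1.57, adjusted exact p = 0.00216, two-sided Fisher's exact test), and more often than intergenic peaks, at 9.83% (odds ratio 1.59, 1.34 to 1.87, adjusted exact p = 2.19e-07). Median widths in that list were 1043 bp for members, 940.0 bp for later-intron peaks and 1038 bp for intergenic peaks, and the part of width in these contrasts was not tested.

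In the iBRG1 list neither contrast passed. Members were shared at 13.8%, later-intron peaks at 12.6% (odds ratio 1.11, 0.948 to 1.30, adjusted exact p = 0.242) and intergenic peaks at 13.3% (odds ratio 1.04, 0.893 to 1.21, adjusted exact p = 0.592). Among iBRG1 peaks with scores of 5 to 9 the contrast turned, and members were shared less often than intergenic peaks (odds ratio 0.655, adjusted exact p = 0.00340). The difference between the lists was itself tested as a ratio of odds ratios. For members against intergenic peaks it was 1.53 (1.22 to 1.90, adjusted exact p = 0.00128, Zelen's exact test over 7 such ratios), and for members against later introns it was 1.19 (0.947 to 1.49, adjusted exact p = 0.203). The lists share sites, so these ratios are not between independent sets.

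Sharing rose with score in both lists. Among iBRG1 members it was 6.23% at scores of 0 to 1 and 24.6% (19.0 to 31.2) at 7 to 9, where intergenic iBRG1 peaks reached 38.9% (33.9 to 44.0). Among i∆HSA members it was 2.74% at a score of 1 and 33.8% (26.8 to 41.5) at 7 to 9, against 24.1% (20.8 to 27.7) for intergenic i∆HSA peaks. At scores of 5 to 6 the i∆HSA members were at 26.5% (21.8 to 31.8) and the later-intron peaks at 17.6% (14.8 to 20.7).

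**Figure D3:**
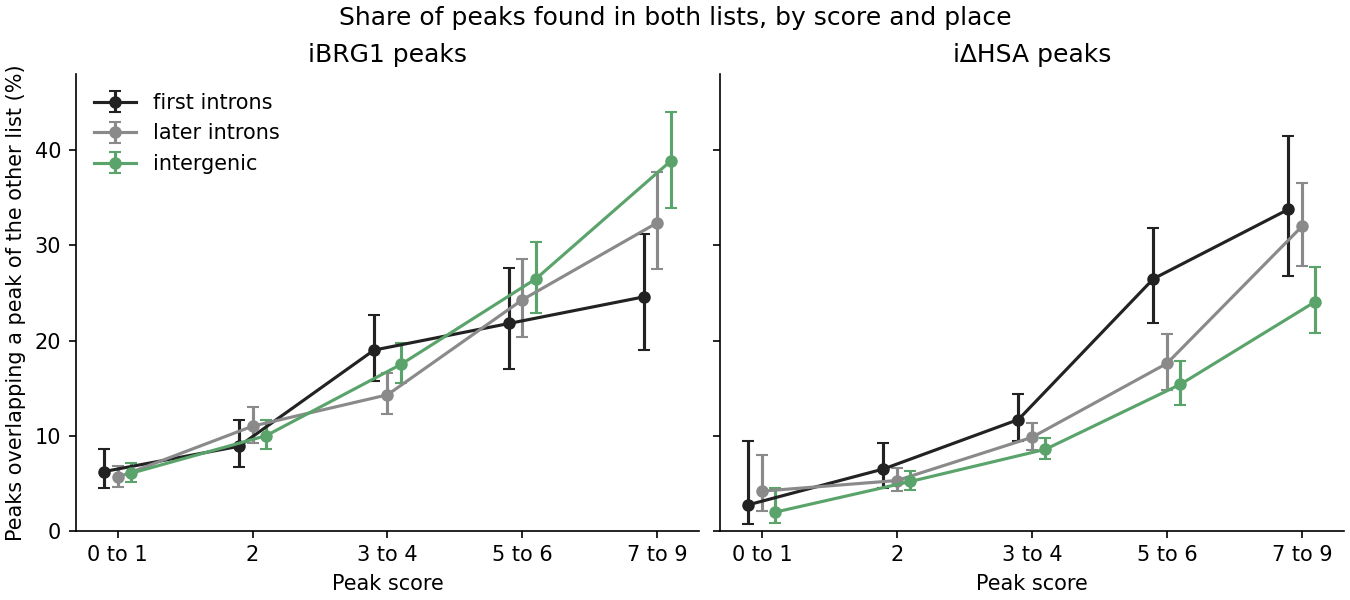
Percent of peaks that overlap a peak of the other list (vertical axis) by the peak's score (horizontal axis), for first introns, later introns and intergenic sequence; bars are 95% Wilson intervals. All lines climb with score, first introns end lowest among iBRG1 peaks (24.6%) and highest among i∆HSA peaks (33.8%).

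Partners could have any score, whereas members were chosen for a score under 10. Of the 268 shared iBRG1 members, 90 (33.6%) met an i∆HSA peak with a score of 10 or more, and of the 238 shared i∆HSA members 48 (20.2%) met such an iBRG1 peak. These shares are not like for like, because the lists differ in how many such partners they hold. Scores under 10 made up 82.3% of all i∆HSA peaks and 89.0% of all iBRG1 peaks, and the score scales may differ. Both peaks were members in 169 pairs, which lay in 159 genes. Their midpoints were a median of 348 bp apart (quartiles 174 to 680.0), 49 pairs (29.0%) were within 200 bp, and the overlap had a median of 1015 bp (range 235 to 4209). Members also lay near strong peaks of their own list more often than later-intron peaks did. A peak with a score of 10 or more was within 10 kb of 3.97% of iBRG1 members and 2.71% of later-intron peaks (odds ratio 1.48, 1.09 to 2.00, adjusted exact p = 0.00935), and of 3.85% and 2.14% in the i∆HSA list (odds ratio 1.83, 1.30 to 2.57, adjusted exact p = 9.08e-04, Fisher's exact tests). For iBRG1 members with scores of 5 to 9 the odds ratio was 0.910 (adjusted exact p = 0.776). Strong peaks at promoters counted as neighbours, and the 2 classes of introns were not matched for distance from the transcript start. The part of that distance in this contrast was not tested.

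Sequence at the peak centres was searched for 12 patterns on both strands, in the 201 bp around each midpoint and in windows of equal size 2 kb to each side. The letters TGACTCA stood for AP-1 and GGAATG for the TEAD family. For RUNX the letters were TGTGGTT, for the ETS family CCGGAAG and for the SP and KLF family GGGCGG. The E-box was searched as CACGTG, the cAMP response element (CRE) as TGACGTCA and the site of NR5A receptors as CAAGGTCA. The C/EBP pattern was TTGCGCAA and that of the forkhead (FOX) family was TGTTTAC. Sites of the GATA family were searched with the letters AGATAA, and the core of the CTCF site as AGGGGGCGC. No pattern contains another. A match says only that the letters are present.

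Of the patterns that passed, AP-1 was the most raised at the centres of both sets of members. It was found in 174 of 1940 iBRG1 members (8.97%, 7.78 to 10.3) and in 2.94% of their flanks (odds ratio 3.25, 2.54 to 4.19, adjusted exact p = 1.47e-20, Fisher's exact test over 24 tests). Of i∆HSA members 109 of 1612 (6.76%, 5.64 to 8.09) had a match, against 3.16% of flanks (odds ratio 2.22, 1.67 to 2.96, adjusted exact p = 2.73e-07). Over all peaks with a score under 10 the shares were 8.01% and 5.33%. The constructs did not differ past the threshold, with an odds ratio of 1.36 (1.05 to 1.76, adjusted exact p = 0.215 over 12 patterns), and neither did first and later introns for any of the 24 tests of pattern and list (adjusted p of 0.991 or more).

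**Figure D4:**
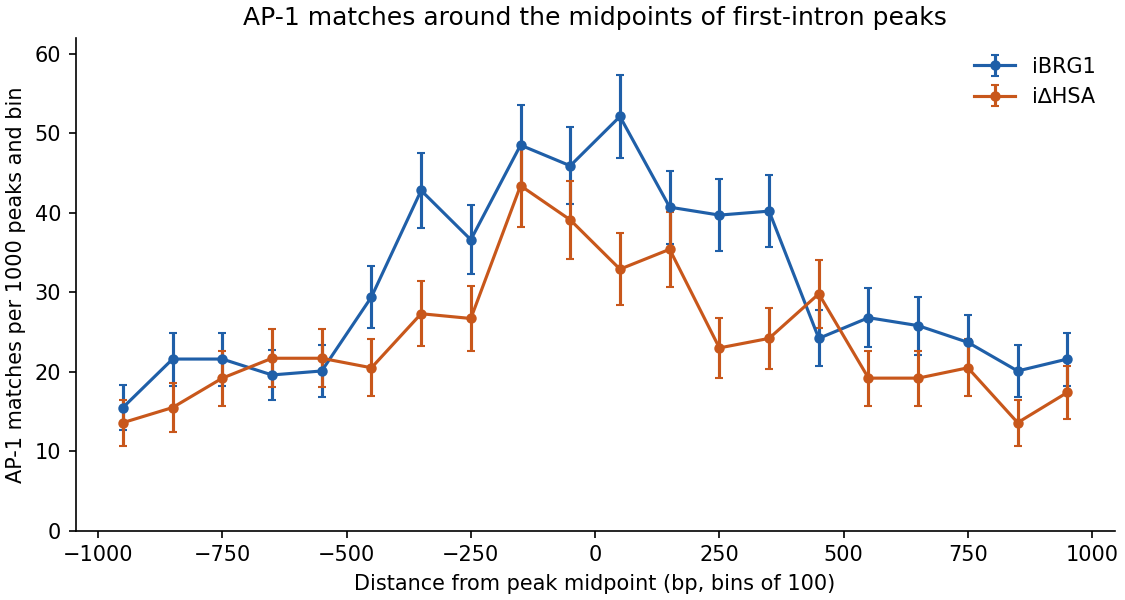
AP-1 matches per 1000 peaks in bins of 100 bp (vertical axis) by distance from the peak midpoint (horizontal axis), for the members of each list; bars are the square root of the count on the same scale. Both profiles are highest within 200 bp of the midpoint, up to 52.1 for iBRG1 and 43.4 for i∆HSA, and between 13.6 and 21.6 in the outermost bins.

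TEAD matches were more frequent at the centres than in the flanks of iBRG1 members, at 12.7% and 9.95% (odds ratio 1.32, 1.11 to 1.57, adjusted exact p = 0.00905). In i∆HSA members they were at 10.9% and 11.2% (odds ratio 0.966, 0.793 to 1.17, adjusted exact p = 0.839). Over all peaks with a score under 10 the shares were 11.8% and 10.0%, near those of the members. The ratio of these odds ratios, i∆HSA to iBRG1, was 0.732 (0.567 to 0.945, adjusted exact p = 0.0452 by Zelen's test). The centres alone did not differ between the lists past the threshold (odds ratio 1.20, 0.970 to 1.48, adjusted exact p = 0.371, Fisher's exact test). SP/KLF, a GC-rich pattern common at promoters, was rarer at the centres than in the flanks of both lists, with odds ratios of 0.589 (adjusted exact p = 0.0153) and 0.528 (adjusted exact p = 0.00285). Among scores of 5 to 9 neither passed, at 0.764 (adjusted exact p = 0.887) and 0.476 (adjusted exact p = 0.220). Flank windows, unlike members, could fall on exons or within 1 kb of a transcript start. The part of this rule in the SP/KLF contrast was not tested. GATA had odds ratios of 1.16 (adjusted exact p = 0.188) and 1.21 (adjusted exact p = 0.128), and passed in i∆HSA with windows of 250 bp to each side (1.22, adjusted exact p = 0.0110). The other patterns did not pass.

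**Figure D5:**
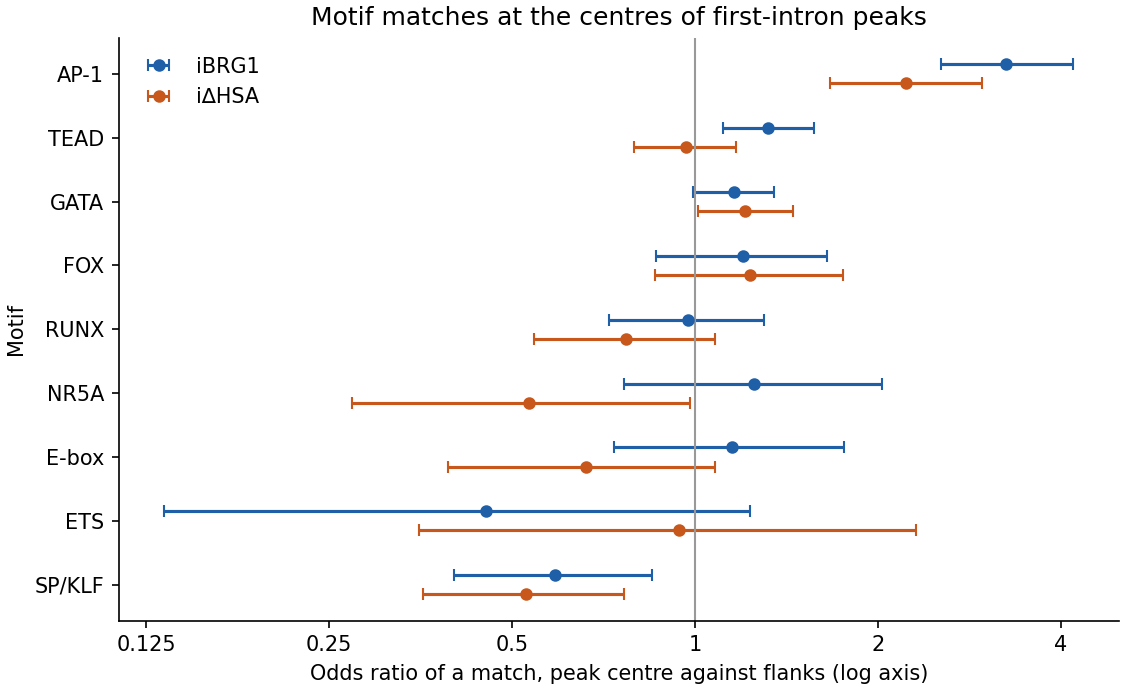
Odds ratio of a match at the peak centre against the flanks (horizontal log axis) for 9 patterns (vertical axis) in the members of each list; bars are exact 95% intervals. AP-1 stands to the right of 1 in both lists (3.25 and 2.22), the iBRG1 interval of TEAD is also to the right, and SP/KLF to the left in both.

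In the i∆HSA list, shared members held AP-1 matches more often than others. A match was at the centre of 15.1% of the 238 shared i∆HSA members and of 5.31% of the 1374 list-only ones (odds ratio 3.17, 2.01 to 4.94, adjusted exact p = 1.58e-06, Fisher's exact test). In the iBRG1 list the shares were 10.4% and 8.73% (odds ratio 1.22, 0.766 to 1.89, adjusted exact p = 0.358). The ratio of the odds ratios was 2.58 (1.42 to 4.71, adjusted exact p = 0.00723). With a window of 250 bp to each side the iBRG1 odds ratio was 1.55 (adjusted exact p = 0.00582), and that of i∆HSA was 3.70. The AP-1 share also varied with score, from 6.15% at scores of 0 to 2 to 14.5% at 5 to 9 in the iBRG1 list and from 5.95% to 9.73% in the i∆HSA list. Of the 169 overlaps between members, 96 (56.8%) held an AP-1 match somewhere. In windows of 1015 bp, the median length of those overlaps, a match was present in 31.0% of list-only iBRG1 members and in 21.1% of list-only i∆HSA members. The overlaps varied in length while these windows did not, and scores were not matched, so the shares are not like for like. Both midpoints had a match within 100 bp in 5 of the pairs (2.96%).

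Finally, genes with and without a member were compared for a peak of any score at the promoter, within 1 kb of the start of the same transcript. Within 4 classes of room, 0 of 8 tests passed after adjustment (Fisher's exact test, lowest adjusted p 0.163), and 1 had an unadjusted p under 0.05. That was for iBRG1 and 5 to 20 kb of room, where 15.5% of 310 genes with a member and 11.3% of 2969 without had a promoter peak (odds ratio 1.44, 1.01 to 2.01). In introns with 20 to 100 kb of room the shares were 10.9% and 11.1% for iBRG1 and 14.4% and 11.5% for i∆HSA. With promoters widened to 3 kb, 2 of 8 tests passed.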

How the data were processed

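Peaks of V5-tagged BRG1 came from 4 SW-13 samples, 2 per construct, grouped by their titles. Per the labels and the study's methods, the authors trimmed reads with cutadapt, aligned them with Bowtie2, removed duplicates with Picard, called peaks with MACS2 2.2 and describe removing those of negative controls. The deposited score is a whole number per peak. Its scale, any pooling of replicates and the depth reached are not given in the sources used here. The methods name a minimum score of 5, which the deposited values go below. The submitters' notes name hg19, and 0 peaks ended past a GRCh37 chromosome. Whether the deposited lists had control peaks removed is unknown, and such a step would change which weak sites appear.

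GENCODE release 44 mapped to GRCh37 gave the introns. The longest transcript had the largest summed exon length. Shared meant an overlap of at least 1 bp. Two-sided Fisher's exact tests compared shares of peaks or genes, which are not replicates, and p-values were adjusted by the Benjamini-Hochberg method over 4 sharing, 24 motif, 8 promoter and 23 chromosome tests. Odds ratios of the lists were compared with Zelen's exact test. Intervals are 95% Wilson, Poisson or exact conditional intervals and cover counting error only. Eligible sequence was counted for a peak of 1037 bp, the median width in introns. Named genes were the 5 with most members per list, the 10 strongest overlapping pairs, the study's target and subunit genes, up to 4 per gene group and the 5 densest introns with at least 3 members. Members, lists and tests were chosen with earlier results of these data known, and the tests of strong neighbours, of intron length, of AP-1 in shared members and of differences between lists were added after seeing these values. A gene and a sequence that these rules pick are not reported here. Alternatives changed the overlap, score range, start distance, transcript, GC, window and promoter width. Sequences carry no repeat masking. Classification and tests were checked on simulated data. Python 3.11.15, numpy 2.4.6, scipy 1.17.1, pandas 2.3.3, statsmodels 0.14.6, pysam 0.24.0 and matplotlib 3.10.9 were used.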

Additional observations from a re-analysis of the deposited data

Results flagged for a closer look

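Contrasts that differed between the lists are listed here with their values. The advantage of first introns over intergenic sequence in the share of peaks found in both lists was larger for i∆HSA, with a ratio of odds ratios of 1.53 (1.22 to 1.90, adjusted p = 0.00128, Zelen's exact test). The excess of AP-1 matches in shared over list-only members was also larger for i∆HSA, with a ratio of 2.58 (1.42 to 4.71, adjusted exact p = 0.00723). The excess of TEAD matches at peak centres over flanks was smaller for i∆HSA, with a ratio of 0.732 (0.567 to 0.945, adjusted exact p = 0.0452). The TEAD share at the centres alone did not differ between the lists past the threshold (odds ratio 1.20, adjusted exact p = 0.371, Fisher's exact test). Each of these contrasts rests on 1 list per construct, and differences in library depth or score scale cannot be told apart from the construct.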

How the results depend on the processing

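No paired analysis was possible because the peak lists carry no replicate column, and leaving out a replicate was not run for the same reason. Of the 112 alternative values, 82 were counted as unchanged. For an odds ratio this meant the same direction and the same side of the threshold. A ratio of peaks per Mb had to stay within the interval of the main value, and a count of passing tests had to equal or be close to the main count.

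Restricting to scores of 5 to 9 changed most. For iBRG1 the odds ratio of sharing fell to 0.781 against later introns (adjusted exact p = 0.0937) and 0.655 against intergenic sequence, that of AP-1 in shared members to 0.790 and that of a strong neighbour to 0.910. The ratios of peaks per Mb became 1.65 for iBRG1 and 1.19 for i∆HSA, and the odds ratio for introns of 100 kb or more 1.09. The share of members differed on 1 chromosome, chromosome 19, where 0.238% of iBRG1 and 3.10% of i∆HSA members lay (adjusted exact p = 0.0208). In the i∆HSA list 1 pattern, AP-1, passed against flanks, and 1 promoter class passed (iBRG1, 5 to 20 kb, odds ratio 2.35). Odds ratios also crossed 1 without passing for promoter peaks at 20 to 100 kb (1.04 for iBRG1, 0.961 for i∆HSA), for NR5A (0.152 against flanks, 0.142 against later introns) and GATA (0.841 against later introns) in iBRG1, and for TEAD against flanks (1.19) and SP/KLF against later introns (0.977) in i∆HSA. This range holds fewer peaks, and the cause of these changes was not tested.

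A reciprocal overlap of 50% put AP-1 in shared iBRG1 members at 0.703 (adjusted exact p = 0.373) and windows of 250 bp at 1.55. Those windows gave NR5A 0.905 against flanks and GATA 0.981 against later introns in iBRG1, and NR5A 1.21 against later introns in i∆HSA. Promoters of 3 kb gave 2 passing classes and an odds ratio of 1.17 for iBRG1 at 20 to 100 kb. The construct difference in the first-intron share of intronic peaks stayed between 1.14 and 1.38 in all 3 alternatives, and AP-1 in shared i∆HSA members between 2.96 and 4.15 in all 4. Depth is unknown, so weak sites absent from a list may be present in the cells.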
